A study of Mus musculus with 8 samples.

Results

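ChiaRed+ cells of heterozygous mice (C/+) were compared with the whole lung epithelial gate of wild-type mice (WT). The comparison used 6 of the 8 RNA sequencing libraries of the study, the 3 labelled C/+ and the 3 labelled WT, chosen by those labels, and covered all 14906 of 43432 listed genes that had enough counts to test. The 2 remaining libraries, from mice homozygous for ChiaRed (C/C), entered the statistical model only to estimate the spread between libraries. The mice were C57BL/6J and 14 weeks old. ChiaRed is a fluorescent reporter allele of Chia1, the gene of acidic mammalian chitinase (AMCase). C/+ mice carry 1 copy of it, and ChiaRed+ cells were sorted from the EpCAM+CD45- gate of their lungs. WT mice carry no reporter, so their libraries hold every EpCAM+CD45- cell. Sort and genotype therefore differ together between the groups and cannot be told apart. The labels do not say that the libraries of a group came from separate mice. P-values here set the difference between the groups against the spread between these libraries only. Some of that spread may be technical.

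AMCase cleaves chitin, a polymer of fungal walls and of the shells and gut linings of insects and mites, and in mouse lung it is made by airway secretory and alveolar epithelium. Club cells are the secretory cells of the small airways, known for secretoglobins and for cytochrome P450 enzymes that act on inhaled compounds. Alveolar type 2 cells make surfactant, and alveolar type 1 cells form the thin gas exchange surface. EpCAM is an adhesion protein of epithelial cells, and CD45 marks leukocytes. Endothelial cells, which line vessels, mesothelial cells, which cover the lung, and fibroblasts are not epithelial cells of the airways and alveoli.

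Library totals ran from 17057216 to 52319957 counts in the 6 libraries. The sorting genes fitted the gate: Epcam stood between 156.2 and 199.8 CPM (counts scaled to a common library size) and Ptprc, which encodes CD45, between 0.117 and 1.79 CPM in all 8 libraries. Of 26 leukocyte markers, 18 had too few counts to be tested, among them Cd3e and Adgre1, which mark T cells and macrophages. Xist and Y-linked counts, used because the labels give no sex, showed WT 1, C/+ 2 and C/+ 3 to be female and WT 2, WT 3 and C/+ 1 to be male. On the first principal component, with 43.9% of the variance, WT libraries lay between -54.8 and -24.5 and C/+ libraries between 26.9 and 51.8.

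By number, most genes that differed were scarce in the whole gate and higher in C/+. A gene was called where the adjusted p of the edgeR quasi-likelihood test was under 0.05. Calls numbered 585 (3.92% of tested genes), with 510 higher in C/+ (3.42%) and 75 lower (0.503%). The Wald test of DESeq2, used as a second tool, called 8.13% (5.98% higher, 2.15% lower). The genes called higher had a median log2 fold change (log2FC, C/+ over WT) of 2.17, with a range of 0.36 to 6.24, and a median WT level of 2.61 CPM. The genes called lower had a median log2FC of -0.48 and a median WT level of 86.6 CPM, against 15.1 CPM for all tested genes, whose median log2FC was 0. More than 2-fold changes were seen in 424 of the genes called higher and 3 of those called lower. Together the genes called higher took 18280, 18340 and 17500 CPM in WT 1, 2 and 3, and 41940, 35980 and 41330 CPM in C/+ 1, 2 and 3. Without Scgb1a1, the most abundant airway gene among them, these sums were 17990, 17520 and 17210 CPM against 33550, 30950 and 36850 CPM. Much of what remained was not scarce in WT. The mitochondrial genes mt-Cytb and mt-Nd1 and the lysozyme gene Lyz1 averaged 6304, 3712 and 2417 CPM in WT. In C/+ they averaged 10236, 6771 and 4366 CPM. These genes were selected for being higher in C/+, so the order of the groups follows from the selection, and the sums only give the size of the part they take.

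Called genes without overlap between the 3 C/+ and the 3 WT libraries numbered 584, where 24.8% of all tested genes had none, which follows from calling them on these same libraries. The exception was Gm15772, an unnamed gene model, with 18.4, 0.233 and 14.1 CPM in C/+ and 0.259, 0.0949 and 0.0744 CPM in WT. With sex as a covariate 1700 genes were called, 11.4% of those tested (7.02% higher, 4.38% lower), and the 585 were all among them. Only 70 of the 585, 69 higher and 1 lower (Myh14), were also called in each of the 8 fits that left out 1 library. Calls numbered 103 without C/+ 1, 198 without C/+ 2, 127 without WT 2, 175 without WT 3, 331 without C/C 1 and 330 without C/C 2.

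**Figure D1:**
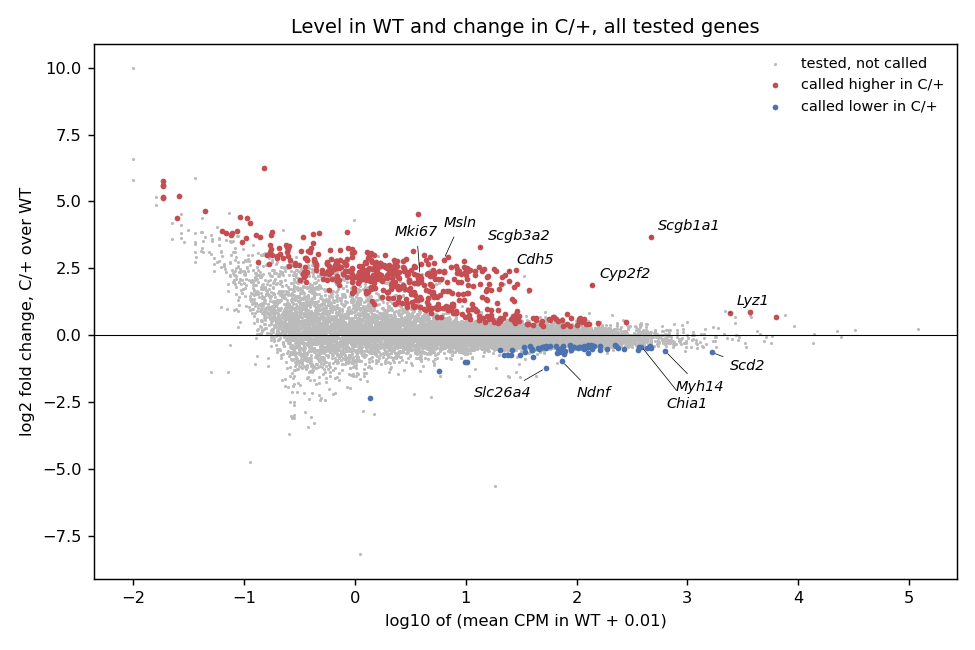
Each point is 1 of 14906 tested genes, with the log10 of its mean WT level (CPM plus 0.01) on the horizontal axis and its log2 fold change, C/+ over WT, on the vertical axis. Red points (510 genes called higher) lie mostly at low WT levels and reach 6.24, and blue points (75 genes called lower) lie mostly at higher WT levels and close to 0.

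The gene of the reporter itself did not differ beyond the spread between libraries. Chia1 (chromosome 3, 106113229 to 106132120, GRCm38) stood at 267, 454 and 425 CPM in WT 1, 2 and 3 and at 303, 341 and 223 CPM in C/+ 1, 2 and 3. The groups overlapped, and the log2FC was -0.40 (SE 0.28, 95% interval -1.03 to 0.23, adjusted p = 0.476). Across the 17 alternative settings the log2FC lay between -0.61 and -0.23, and Chia1 was called in none of them (settings that left out 1 library included).

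Several airway secretory genes rose. Scgb1a1, the main secretoglobin of club cells, stood at 291, 824 and 290 CPM in WT 1, 2 and 3 and at 8388, 5028 and 4482 CPM in C/+ 1, 2 and 3. C/+ 1 was highest and WT 2 was the highest of its group, yet every C/+ library stood far above every WT library (log2FC 3.67, SE 0.44, adjusted p = 0.00906). Among the enzymes of these cells, Cyp2f2 stood at 123, 188 and 100.3 CPM in WT and at 648, 414 and 442 CPM in C/+ (log2FC 1.87, SE 0.24, adjusted p = 0.00906). Scgb3a2, a second secretoglobin, stood at 9.44, 22 and 9.19 CPM in WT and at 206, 109 and 74.1 CPM in C/+ (log2FC 3.30, SE 0.42, adjusted p = 0.00906). All 3 kept their calls in the 8 fits without 1 library.

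Bpifa1, which encodes a surface-active airway protein, stood at 6.15, 4.51 and 0.409 CPM in WT and at 165, 42.2 and 34.9 CPM in C/+ (log2FC 4.51, SE 0.85, adjusted p = 0.0205). Its relative Bpifb1 stood at 7.19, 6.17 and 0.818 CPM in WT and at 60.7, 21.2 and 23.6 CPM in C/+ (log2FC 2.94, SE 0.67, adjusted p = 0.0391). Ltf, the iron-binding lactoferrin, stood at 0.879, 1.61 and 0.0372 CPM in WT and at 21.8, 3.78 and 7.06 CPM in C/+ (log2FC 3.86, SE 0.91, adjusted p = 0.0439). For each of these genes WT 3 was lowest and C/+ 1 highest, and no C/+ library fell within the WT range. Muc5b, a gel-forming mucin, rose as well (2.03 ± 0.957 CPM in WT, 12 ± 8.99 CPM in C/+, SD, n = 3 each; log2FC 2.61, SE 0.55, adjusted p = 0.0314). All 4 lost their calls without C/+ 1 or WT 2, and some of them without other libraries too, at adjusted p of up to 0.172 (Ltf without C/+ 1).

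Of 24 tested club cell markers, 11 were called higher and 0 lower, with a median log2FC of 1.65, against 3.42% called higher and a median of 0 over all tested genes (18 of the 24 had an unadjusted p under 0.05, and DESeq2 also called 0 lower). The members were far from uniform. Aldh1a1, a retinaldehyde dehydrogenase, rose with log2FC 1.79 and Gsta3, a glutathione transferase, with 0.53, calls that were lost without WT 3 (adjusted p = 0.0517) and in 7 fits without 1 library (up to 0.153). Cbr2, a carbonyl reductase, had a log2FC of 0.05 at 4532 CPM in WT, and Ces1d, a carboxylesterase, -0.10 at 1022 CPM, and neither was called. Cyp2b10 had a log2FC of -1.01 (SE 0.41, adjusted p = 0.203). The members that were not called thus included the most abundant ones in the whole gate. The count was 4 without C/+ 1, 7 without C/+ 2, 7 without WT 2 and 6 without WT 3. In bulk libraries such as these, more cells of a type and more RNA per cell cannot be told apart.

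Among 26 xenobiotic metabolism genes 9 were called higher and 0 lower, where 3.42% of all tested genes were called higher. Their median log2FC was 0.68 (17 at an unadjusted p under 0.05, 1 lower by DESeq2). Cyp1a1, the P450 induced through the aryl hydrocarbon receptor, stood at 4.29, 3.13 and 2.64 CPM in WT and at 58.8, 16.5 and 13.4 CPM in C/+ (log2FC 3.15, SE 0.51, adjusted p = 0.0143). Fmo2, the lung flavin monooxygenase, stood at 34.1, 27.6 and 16.4 CPM in WT and at 88.2, 54.5 and 58.0 CPM in C/+ (log2FC 1.37, SE 0.26, adjusted p = 0.0201). C/+ 1 was again the highest library for both. Without WT 2 the adjusted p was 0.0588 for Cyp1a1 and 0.0713 for Fmo2, without WT 3 it was 0.0503 for Cyp1a1, and without C/+ 1 it was 0.0707 for Fmo2. The count was 3 without C/+ 1, 5 without C/+ 2 and 2 without WT 2 or WT 3. Cyp2f2 and Gsta3 are also on the club cell list, and Cyp4b1 is also on the aerocyte list.

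Calls among markers of other airway cells can be read against the 3.92% of all tested genes. Of 20 multiciliated cell markers 0 were called (1 at an unadjusted p under 0.05, 0 by DESeq2), with a median log2FC of -0.27. Their summed level was 218, 272.5 and 311.4 CPM in WT and 376.2, 223.1 and 175.7 CPM in C/+, so that the groups overlapped. Without C/+ 1, 2 of them were called lower. Goblet cell and mucin genes gave 1 call in 8, Muc5b. Of 4 tested basal cell markers 0 were called (0 at an unadjusted p under 0.05, 0 by DESeq2). Of 6 neuroendocrine markers, 1 was called, Meis2, a homeobox gene that is also expressed outside these cells.

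**Figure D2:**
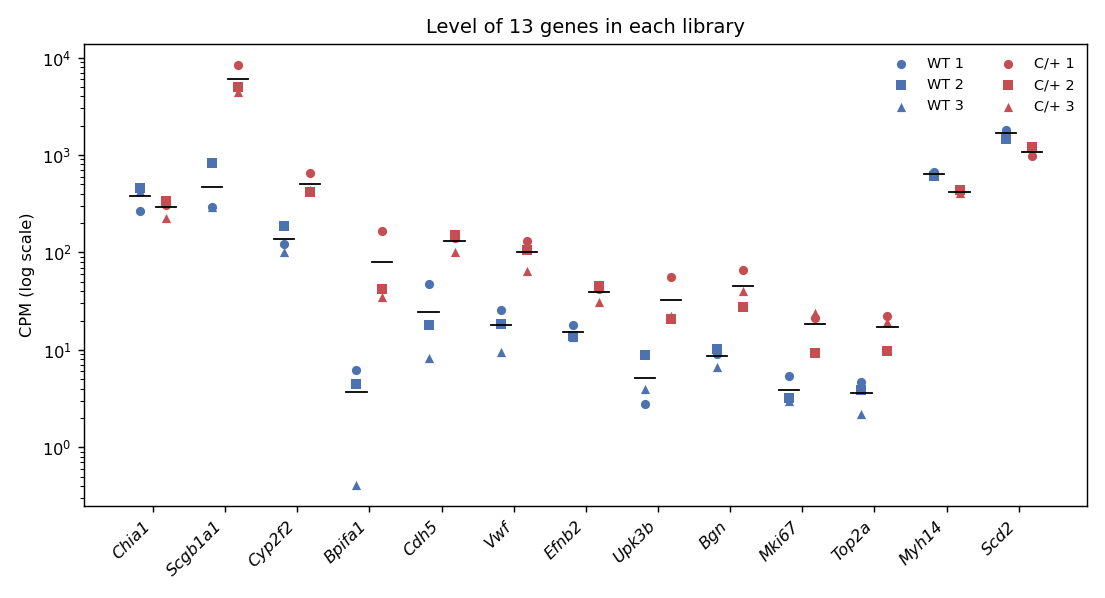
Level of 13 genes in each library, in CPM on a log axis. Blue symbols are WT and red symbols C/+, the symbol shape gives the replicate number, and bars are group means. For Chia1 the groups overlap. Scgb1a1 to Top2a stand higher and Myh14 and Scd2 lower in every C/+ library than in every WT library.

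Alveolar genes dominated every library. The 23 alveolar type 2 markers together took 232400, 258900 and 266300 CPM in WT and 280900, 285800 and 276100 CPM in C/+. Every C/+ sum thus stood above every WT sum, while the median log2FC of the markers was 0.00. Sftpc, a surfactant protein, stood at 105400, 127300 and 131500 CPM in WT and at 147800, 140100 and 136000 CPM in C/+, and was not called. Without overlap of libraries, 5 markers were higher and 2 lower in C/+, as were 14.1% and 10.7% of all tested genes. Sftpb, a surfactant protein, stood at 25397, 23919 and 23515 CPM in WT and at 21675, 24254 and 23535 CPM in C/+ (log2FC -0.07, 95% interval -0.30 to 0.17, adjusted p = 0.763). The groups overlapped, and the interval limits any difference in Sftpb to a small one. The only call among the 23, where 3.92% of all tested genes were called, was Lyz1, a lysozyme, at 1776, 2689 and 2785 CPM in WT and 4321, 3693 and 5086 CPM in C/+ (log2FC 0.85, SE 0.18, adjusted p = 0.0302). Its near-identical neighbour Lyz2, at 32260 CPM in WT, had a log2FC of 0.21 (adjusted p = 0.304), and reads shared between both genes may have been split by the counting. Lyz1 lost its call without WT 2, WT 3, C/+ 1, C/+ 2 or either C/C library, at adjusted p of up to 0.0835.

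Of 20 alveolar type 1 markers 1 was called higher and 1 lower (3.42% and 0.503% of all tested genes), with a median log2FC of -0.17. The higher one was Cav1, the main protein of caveolae, which endothelial and mesothelial cells also express. Cav1 stood at 36.7, 27.5 and 23.2 CPM in WT and at 146.1, 114 and 69.3 CPM in C/+ (log2FC 1.92, SE 0.25, adjusted p = 0.00977). It kept its call in all 8 fits without 1 library. The lower one was Rtkn2, an effector of small GTPases, at 4.94, 4.84 and 7.27 CPM in WT and 2.12, 2.10 and 2.59 CPM in C/+ (log2FC -1.34, SE 0.24, adjusted p = 0.0181). Ager, the most abundant type 1 marker, stood at 1358, 1943 and 2003 CPM in WT and at 2056, 1702 and 1312 CPM in C/+, with full overlap. Without WT 3, C/+ 1 or C/+ 2 the Rtkn2 call was lost, at adjusted p of up to 0.069, and without WT 1 the list had 3 lower calls.

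Endothelial genes were among the listed genes that rose. Of the 510 genes called higher, 48 stood on an endothelial list, a number that depends on how many such genes were listed. Over all tested genes 3.42% were called higher. Of 25 markers shared by most endothelial cells, 19 were called higher and 0 lower (23 at an unadjusted p under 0.05, DESeq2 20 higher and 0 lower), with a median log2FC of 2.32. Cdh5, the adhesion protein of endothelial junctions, stood at 47.2, 18.2 and 8.27 CPM in WT 1, 2 and 3 and at 139.5, 149.6 and 101.7 CPM in C/+ 1, 2 and 3 (log2FC 2.41, SE 0.48, adjusted p = 0.0254). WT 1 stood well above the other WT libraries, and all C/+ libraries stood above it. Erg, an ETS transcription factor of endothelium, stood at 1.24, 0.996 and 0.669 CPM in WT and at 9.89, 10.1 and 4.71 CPM in C/+ (log2FC 3.10, SE 0.37, adjusted p = 0.00906). Vwf, the von Willebrand clotting factor, stood at 25.8, 18.5 and 9.56 CPM in WT and at 130.2, 105.8 and 63.8 CPM in C/+ (log2FC 2.49, SE 0.35, adjusted p = 0.0105), a call kept in all 8 fits without 1 library. Outside the lists, Cd34, a sialomucin of endothelial and some stromal cells, stood at 6.31, 4.65 and 2.23 CPM in WT and at 44.0, 33.7 and 14.1 CPM in C/+ (log2FC 2.82, SE 0.43, adjusted p = 0.0116), also kept in all 8.

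The summed level of the 25 shared markers was 593.5, 376.8 and 291.3 CPM in WT and 1353, 1487 and 885.2 CPM in C/+, and no tested marker was at 0 in a whole group. The part of endothelial transcripts in the difference between the groups was not tested beyond these values. Of the 6 members that were not called, Esam, an adhesion protein, stood at 184, 213 and 201 CPM in WT and 205, 196 and 139 CPM in C/+ (log2FC -0.15, adjusted p = 0.605), and was by far the most abundant of the list in WT. The count of shared markers called higher was 3 without C/+ 1, 4 without C/+ 2, 2 without WT 2 and 10 without WT 3. Cdh5 had an adjusted p of 0.099 without WT 2, 0.0767 without C/+ 1 and 0.0852 without C/+ 2.

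Markers of capillaries, arteries and veins all included calls, which can be read against the 3.42% of all tested genes called higher. Of 16 general capillary markers 8 were called higher, with a median log2FC of 2.15, and of 14 aerocyte markers 8, with a median of 1.84. Aerocytes are the large alveolar capillary cells marked by Car4, and general capillary cells are those that express Kit, Plvap and Aplnr. Of 14 arterial markers 8 were called higher, with a median of 2.35, and of 12 venous markers 6, with a median of 2.05. No member of these 4 lists was called lower (DESeq2 0 lower; 12, 13, 13 and 9 members had an unadjusted p under 0.05). Among 9 lymphatic markers edgeR made 0 calls, while 3 had an unadjusted p under 0.05 and DESeq2 called 2, with a median of 0.22, and the lymphatic regulator Prox1 had too few counts to be tested. Lyve1, the lymphatic hyaluronan receptor, averaged 5.36 ± 4.40 (WT) and 20.3 ± 2.75 CPM (C/+; SD, n = 3 each; log2FC 1.93, adjusted p = 0.0585).

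Kit, the stem cell factor receptor, stood at 9.36, 4.13 and 1.69 CPM in WT and at 22.5, 36.8 and 23.3 CPM in C/+ (log2FC 2.45, SE 0.48, adjusted p = 0.0238). Its ligand Kitl, an aerocyte marker, stood at 8.84, 6.78 and 4.72 CPM in WT and at 31.1, 19.5 and 13.5 CPM in C/+ (log2FC 1.67, SE 0.31, adjusted p = 0.0190). Receptor and ligand both stood above every WT library, with Kit highest in C/+ 2 and Kitl highest in C/+ 1. Car4, a carbonic anhydrase on the capillary surface, stood at 9.67, 3.65 and 2.01 CPM in WT and at 28.9, 31.3 and 11.6 CPM in C/+ (log2FC 2.23, SE 0.52, adjusted p = 0.0419), so that C/+ 3 was barely above WT 1. Efnb2, the arterial ephrin ligand, stood at 18.2, 13.9 and 13.6 CPM in WT and at 41.9, 45 and 31.1 CPM in C/+ (log2FC 1.37, SE 0.17, adjusted p = 0.00906), a call kept in all 8 fits without 1 library. Amigo2, a venous marker, stood at 3.39, 3.65 and 3.31 CPM in WT and at 10.8, 9 and 9.35 CPM in C/+ (log2FC 1.5, SE 0.18, adjusted p = 0.00906), also kept in all 8. Amigo2 varied little within the groups. Kit lost its call without WT 2 (adjusted p = 0.0915), C/+ 1 (0.0638) or C/+ 2 (0.0875), Kitl without these or WT 3 (up to 0.0748), and Car4 without these, WT 3 or either C/C library (up to 0.132).

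Members of these lists that were abundant in the whole gate were not called. Cd36, the fatty acid translocase, stood at 1425, 1308 and 1489 CPM in WT and at 1444, 1398 and 1493 CPM in C/+ (log2FC 0.04, 95% interval -0.17 to 0.25). Emp2 (685 CPM in WT) and Car8 (583 CPM in WT) had log2FC of -0.19 and -0.11. Ephb4, the receptor of Efnb2, had a log2FC of 0.26 at 46.2 CPM in WT (adjusted p = 0.190). Without C/+ 1, C/+ 2 or WT 2 the general capillary list had 0 calls and the aerocyte list 1. The aerocyte list had 1 without WT 3 and 3 without either C/C library. The arterial and venous lists had 2 or 3 calls without C/+ 1, C/+ 2, WT 2 or WT 3.

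Receptors of endothelial growth signals rose, while the growth factor Vegfa was not called. The list of VEGF, angiopoietin, apelin, endothelin and adrenomedullin signalling gave 8 calls in 26, all higher, with a median log2FC of 1.63. The share called higher over all tested genes was 3.42%. Kdr, the main VEGF receptor, stood at 22.2, 12.8 and 7.23 CPM in WT and at 97.0, 84.0 and 42.6 CPM in C/+ (log2FC 2.41, SE 0.39, adjusted p = 0.0139). Tek and Tie1, the angiopoietin receptor and its partner, rose with log2FC of 2.12 and 2.25, and Calcrl and Ramp2, which together form the adrenomedullin receptor, with 2.19 and 2.33. Both the ligand apelin (Apln, log2FC 2.68) and its receptor (Aplnr, 2.38) rose, as did endothelin 1 (Edn1, 1.68). Flt1, a second VEGF receptor, stood at 12.6, 4.46 and 1.69 CPM in WT and 31.9, 32.2 and 17.6 CPM in C/+ and did not pass (log2FC 2.12, adjusted p = 0.0649). Vegfa, the ligand of Kdr, stood at 273, 267 and 231 CPM in WT and at 207, 233 and 255 CPM in C/+ (log2FC -0.15, 95% interval -0.39 to 0.09). The count was 1 without C/+ 1 or WT 2, 2 without C/+ 2, 4 without WT 3 and 12 without WT 1. Kdr had an adjusted p of 0.0585 without WT 2 and 0.0505 without C/+ 1.

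In the Notch pathway, membrane ligands of 1 cell activate receptors of the next. Its 14 tested genes had a median log2FC of 0.63 (8 at an unadjusted p under 0.05, 0 lower by DESeq2). Where 3.42% of all tested genes were called higher, 4 of these were, and 0 were called lower. The 4 were the ligand Dll4 (log2FC 1.90), the receptor Notch4 (1.88) and the targets Hey1 (2.95) and Nrarp (1.81). Hey1, a transcriptional repressor, stood at 2.51, 0.759 and 0.707 CPM in WT and at 9.20, 16.2 and 5.76 CPM in C/+ (SE 0.53, adjusted p = 0.0187). The receptors Notch1 and Notch2, the ligand Jag1 and the target Hes1 were not called, with log2FC of -0.19, -0.34, -0.39 and 0.17 and WT levels of 77.8, 105.5, 68.6 and 43.0 CPM. The count was 0 without C/+ 1, C/+ 2, WT 2 or WT 3, and 2 without either C/C library, and Hey1 had an adjusted p of up to 0.074.

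The 21 BMP and TGF-beta genes had a median log2FC of 0.13 (11 at an unadjusted p under 0.05, 2 lower by DESeq2). Where 3.42% of all tested genes were called higher, 5 of these were, and 0 were called lower. The 5 were the ligand Bmp6 (log2FC 2.5), the endothelial receptor Acvrl1 (2.25), the coreceptors Eng (2.21) and Tgfbr3 (0.94) and the inhibitory Smad6 (0.72). Acvrl1 stood at 45.2, 14.3 and 8.61 CPM in WT and at 123, 139 and 62.5 CPM in C/+ (SE 0.52, adjusted p = 0.0409). The receptors Tgfbr2, Bmpr1a and Tgfbr1 and the ligand Bmp4 had log2FC of -0.17, -0.15, -0.27 and -0.01, and the target Id1 0.38 (adjusted p = 0.317). Without C/+ 1, C/+ 2 or WT 2 the count was 0, and it was 1 without WT 3 or either C/C library. Acvrl1 had an adjusted p of up to 0.126.

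**Figure D3:**
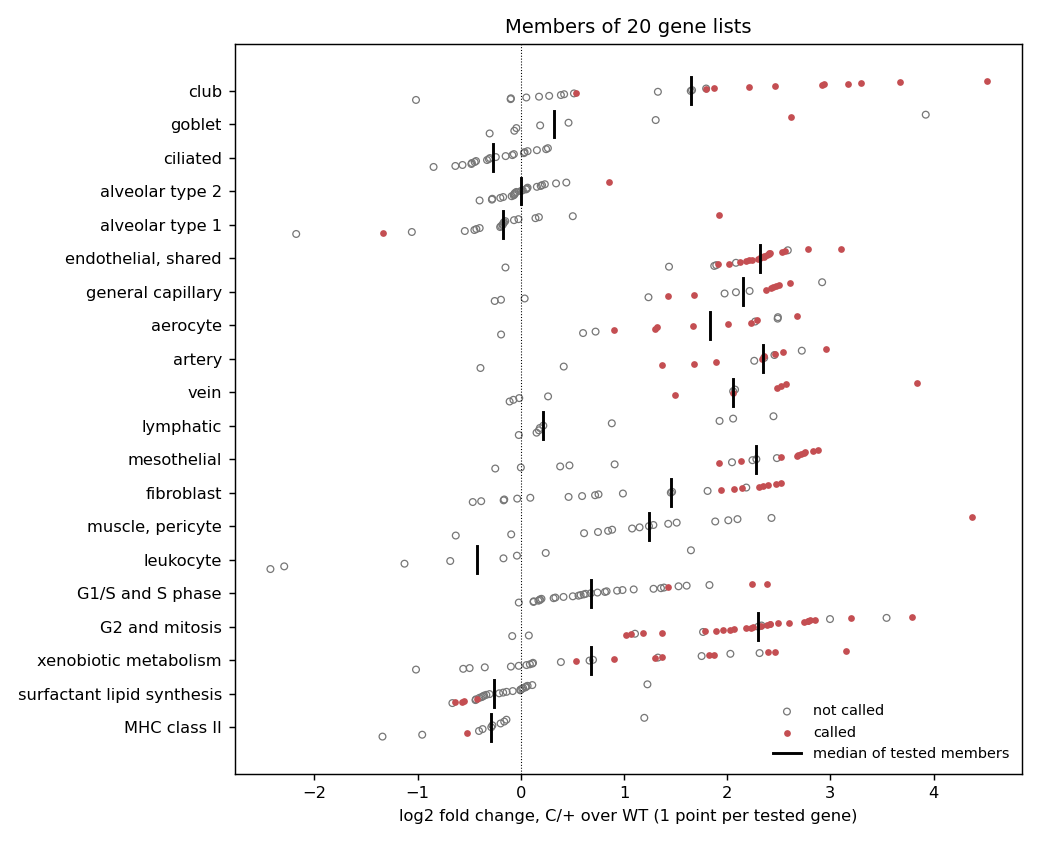
Log2 fold changes, C/+ over WT, of the tested members of 20 gene lists. Each point is a gene, filled where it was called, and the black bar is the median of the tested members. The shared endothelial markers (median 2.32), mesothelial markers (2.28) and genes of G2 and mitosis (2.30) lie to the right, and alveolar type 2 markers (0.00) lie around 0.

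Mesothelial and fibroblast genes rose in the C/+ libraries too, with a different order of libraries from the endothelial genes. Of 19 mesothelial markers 10 were called higher and 0 lower, where 3.42% of all tested genes were called higher. Their median log2FC was 2.28 (17 at an unadjusted p under 0.05, DESeq2 14 higher and 0 lower). Msln, which encodes mesothelin, stood at 2.79, 12.6 and 3.59 CPM in WT 1, 2 and 3 and at 79.7, 25.8 and 22.8 CPM in C/+ 1, 2 and 3 (log2FC 2.83, SE 0.62, adjusted p = 0.0340). Upk3b, a uroplakin of the mesothelium, stood at 2.79, 8.87 and 3.92 CPM in WT and at 55.8, 20.5 and 22 CPM in C/+ (log2FC 2.71, SE 0.47, adjusted p = 0.0161). For both genes WT 2 was the highest WT library and C/+ 1 was by far the highest of all. Wt1, the transcription factor of mesothelium, was low and not called (0.266 CPM in WT, 1.24 CPM in C/+, adjusted p = 0.0519). Msln had an adjusted p of 0.111 without WT 3 and 0.114 without C/+ 1, and Upk3b of 0.0622 and 0.0505. The count was 3 without C/+ 1 and 1 without WT 3. The summed level of the list overlapped, at 1751, 1845 and 1766 CPM for WT and 2381, 1843 and 1888 CPM for C/+.

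Of 23 fibroblast markers 8 were called higher and 0 lower, where 3.42% of all tested genes were called higher. Their median log2FC was 1.45 (12 at an unadjusted p under 0.05, 1 lower by DESeq2). Bgn, the matrix proteoglycan biglycan, stood at 9, 10.3 and 6.68 CPM in WT and at 66.6, 27.7 and 40.5 CPM in C/+ (log2FC 2.39, SE 0.32, adjusted p = 0.01). Gpc3, a cell surface glypican, stood at 10.9, 16.0 and 13.7 CPM in WT and at 78.1, 30.6 and 45.6 CPM in C/+ (log2FC 1.94, SE 0.29, adjusted p = 0.0116). Both kept their calls in all 8 fits without 1 library, and mesothelial cells can express them as well. The fibrillar collagens Col1a1, Col1a2 and Col3a1 rose with log2FC of 2.14, 2.06 and 2.48. Pdgfra and Tcf21, which mark lung fibroblasts more closely, were not called, at 0.473 and 0.227 CPM in WT and 0.629 and 0.325 CPM in C/+. The summed level of this list overlapped too, at 1116, 914.8 and 858.4 CPM for WT and 1104, 865.9 and 1015 CPM for C/+. The part of mesothelial and fibroblast transcripts in the other differences was not tested. The count was 2 to 4 in each fit without 1 library other than the one without C/+ 3, where it was 8.

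Smooth muscle and pericyte markers were near the limit of detection in all libraries. Their 17 tested members together took 28.4, 13.5 and 13.1 CPM in WT and 52.2, 37.3 and 22.1 CPM in C/+. The single call was Cnn1, a calponin of smooth muscle, at 0.0259, 0 and 0.0186 CPM in WT and 0.490, 0.606 and 0.176 CPM in C/+ (adjusted p = 0.0390), levels too low for a fold change to be given, and the call was lost without any 1 WT or C/C library (up to 0.125). Acta2, smooth muscle actin, had mean levels of 0.956 (WT) and 3.40 CPM (C/+) and was not called (adjusted p = 0.212). Leukocyte markers gave 0 calls among the 8 tested in edgeR and in DESeq2, with 2 at an unadjusted p under 0.05. Their summed level was 15.8, 15.5 and 6.36 CPM in WT and 12.6, 6.16 and 3.88 CPM in C/+.

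**Figure D4:**
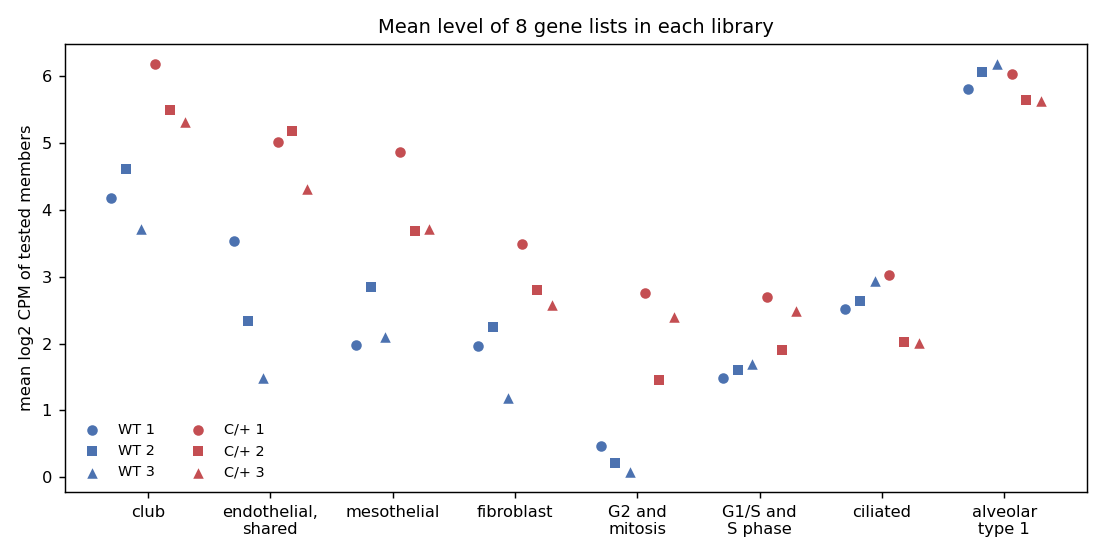
Mean log2 CPM of the tested members of 8 gene lists in each library, WT in blue and C/+ in red, with the symbol shape giving the replicate number. Endothelial markers were highest in C/+ 2 (5.18) and C/+ 1 (5.01), mesothelial markers in C/+ 1 (4.86) and genes of G2 and mitosis in C/+ 1 (2.76). Ciliated and alveolar type 1 markers overlap between the groups.

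The order of libraries thus differed between the gene groups. On the scale of mean log2 CPM, shared endothelial markers stood at 3.53, 2.34 and 1.48 in WT 1, 2 and 3 and at 5.01, 5.18 and 4.31 in C/+ 1, 2 and 3. Mesothelial markers stood at 1.98, 2.84 and 2.09 in WT and at 4.86, 3.68 and 3.71 in C/+. Club cell markers stood at 4.17, 4.6 and 3.71 in WT and at 6.17, 5.49 and 5.31 in C/+. WT 1 was the highest WT library for endothelial genes, and WT 2 was the highest for mesothelial and club cell genes.

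Genes of G2 phase and mitosis, when the replicated chromosomes are separated, were among those that rose. Of 33 tested members 25 were called higher and 0 lower, where 3.42% of all tested genes were called higher. The members had a median log2FC of 2.30 (31 at an unadjusted p under 0.05, DESeq2 30 higher and 0 lower). Their promoters are known for CCAAT boxes, bound by the factor NF-Y, and for a cell cycle homology region (CHR), bound by complexes that repress these genes in resting cells. The 250 bases before the RefSeq start (GRCm38.p6) of 4 members that rose are shown, chosen after their values were seen, because these genes moved together. Capitals mark matches on either strand to CCAAT (or ATTGG) and to TTTGAA (or TTCAAA).
Mki67, chr7:135716380-135716629, minus strand: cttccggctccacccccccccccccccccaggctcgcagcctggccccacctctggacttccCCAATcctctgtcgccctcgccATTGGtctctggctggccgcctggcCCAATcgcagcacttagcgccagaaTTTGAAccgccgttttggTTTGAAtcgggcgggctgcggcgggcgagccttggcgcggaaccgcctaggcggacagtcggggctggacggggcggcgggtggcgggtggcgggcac
Top2a, chr11:99024190-99024439, minus strand: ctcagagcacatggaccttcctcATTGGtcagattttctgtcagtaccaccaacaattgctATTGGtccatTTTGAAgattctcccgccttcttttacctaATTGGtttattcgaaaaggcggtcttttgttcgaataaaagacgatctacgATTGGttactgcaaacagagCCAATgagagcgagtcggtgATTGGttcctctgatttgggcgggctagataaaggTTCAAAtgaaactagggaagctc
Ccnb2, chr9:70421555-70421804, minus strand: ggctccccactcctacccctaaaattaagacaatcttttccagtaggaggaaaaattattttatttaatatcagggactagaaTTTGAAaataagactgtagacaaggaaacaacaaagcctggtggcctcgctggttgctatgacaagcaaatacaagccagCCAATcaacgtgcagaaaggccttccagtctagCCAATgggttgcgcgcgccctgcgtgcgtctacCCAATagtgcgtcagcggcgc
Birc5, chr11:117848987-117849236, plus strand: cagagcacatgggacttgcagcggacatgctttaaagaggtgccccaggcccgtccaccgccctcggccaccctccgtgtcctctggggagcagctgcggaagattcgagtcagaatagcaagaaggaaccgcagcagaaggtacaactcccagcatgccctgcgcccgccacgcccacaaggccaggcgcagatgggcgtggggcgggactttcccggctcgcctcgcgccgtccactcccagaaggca

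The windows of Mki67, Top2a and Ccnb2 held 5, 8 and 4 matches, and that of Birc5 held none of these letters. Over the promoters of the list, CCAAT was found in 22 of 27 and TTTGAA in 9 of 27, while the shares over the promoters of 11122 tested genes of the same length were 35.9% and 10.6%. Among the 20 promoters of members called higher, 16 held CCAAT and 8 held TTTGAA. The replication list had CCAAT in 15 of 22 promoters and TTTGAA in 2 of 22. The E2F motif TTTCCCGC was in 0 of the 27 and in 3 of the 22, against 1.7% of all. These matches describe letters in the windows and show no binding.

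Mki67, the proliferation antigen Ki-67, stood at 5.40, 3.23 and 2.98 CPM in WT 1, 2 and 3 and at 21.2, 9.38 and 24.1 CPM in C/+ 1, 2 and 3 (log2FC 2.23, SE 0.34, adjusted p = 0.0116). Top2a, the topoisomerase of chromosome condensation, stood at 4.71, 3.89 and 2.21 CPM in WT and at 22, 9.66 and 19.3 CPM in C/+ (log2FC 2.25, SE 0.36, adjusted p = 0.0139). C/+ 2 was the lowest C/+ library for both genes and still stood above every WT library. Birc5, the survivin gene, stood at 0.776, 0.664 and 0.316 CPM in WT and at 7.57, 2.57 and 5.65 CPM in C/+ (log2FC 3.20, SE 0.46, adjusted p = 0.0112), although its window held no match. Ube2c, which marks mitotic proteins for degradation, showed the steepest rise of the list (log2FC 3.79, SE 0.48, adjusted p = 0.00906), with mean levels of 0.406 (WT) and 5.43 CPM (C/+). Prc1, a spindle midzone protein and the most abundant member in C/+, and Cdc20, an activator of mitotic exit, rose with log2FC of 1.02 and 1.07 (adjusted p up to 0.0789 and 0.095 without 1 library, C/+ 1 and WT 2 among them).

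Not every mitotic gene moved. Bub1, a kinase of the spindle checkpoint, stood at 26, 20.2 and 20.6 CPM in WT and at 19.3, 19 and 25 CPM in C/+ (log2FC -0.08, 95% interval -0.41 to 0.24). Bub1b, its relative, had a log2FC of 0.08 (95% interval -0.23 to 0.39). Bub1 was the most abundant member of the list in WT. The summed level of the list was 93.7, 84.8 and 82.3 CPM in WT and 286, 143 and 252 CPM in C/+. The count was 8 without C/+ 1, 7 without WT 2 and 11 without WT 3. Without WT 2 both Mki67 and Top2a had an adjusted p of 0.0513, and without C/+ 1 Top2a had 0.0512.

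Genes of DNA replication and of the G1/S transition gave 3 calls in 31, all higher, where 3.42% of all tested genes were called higher. Their median log2FC was 0.68 (14 at an unadjusted p under 0.05, DESeq2 10 higher and 0 lower). Mcm3, a subunit of the replicative helicase, stood at 3.8, 3.37 and 4.41 CPM in WT and at 13.3, 7.60 and 10.4 CPM in C/+ (log2FC 1.43, SE 0.24, adjusted p = 0.0156). Rrm2, the inducible subunit of ribonucleotide reductase, stood at 1.47, 1.14 and 1.21 CPM in WT and at 8.39, 3.03 and 6.76 CPM in C/+ (log2FC 2.25, SE 0.36, adjusted p = 0.0140). The third was Clspn, a replication checkpoint adaptor (log2FC 2.38). Other helicase subunits, Mcm2, Mcm4, Mcm6 and Mcm7, had log2FC of 0.19, 0.12, 0.17 and 0.20 and were not called, and neither was the sliding clamp Pcna (26.8 CPM in WT, log2FC 0.32, adjusted p = 0.224). The count was 5 without C/+ 2 and 0 without C/+ 1 or WT 2, where Mcm3 and Rrm2 had adjusted p between 0.0512 and 0.062. It was 2 in the fits without 1 other library. With sex as a covariate it was 12 of 31, and 30 of 33 for G2 and mitosis. Whether the 2 lists differ was not tested.

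The genes that fell did so by little, and many have long transcripts. Ndnf, a secreted neurotrophic protein, stood at 85.8, 57.8 and 78.5 CPM in WT and at 34.9, 41.6 and 37.1 CPM in C/+ (log2FC -0.97, SE 0.15, adjusted p = 0.0116). Slc26a4, the anion exchanger pendrin, stood at 77.9, 39.9 and 40.6 CPM in WT and at 17.4, 19.4 and 31.8 CPM in C/+ (log2FC -1.22, SE 0.29, adjusted p = 0.0464). Every C/+ library stood below every WT library for both, but WT 1 accounted for much of the WT level of Slc26a4, whose adjusted p was 0.0856 without it and up to 0.156 without another library. Myh14, a nonmuscle myosin heavy chain, stood at 667, 609 and 617 CPM in WT and at 421, 436 and 403 CPM in C/+ (log2FC -0.59, SE 0.09, adjusted p = 0.0116), a call kept in all 8 fits without 1 library. P2ry2, an ATP receptor of epithelia, stood at 26.3, 24.5 and 21.0 CPM in WT and at 14.5, 15.3 and 13.7 CPM in C/+ (log2FC -0.72, SE 0.12, adjusted p = 0.0156). Tle3, a transcriptional corepressor, fell with log2FC -0.82 and Avpr1a, a vasopressin receptor, with -0.73. Ndnf and Tle3 lost their calls without C/+ 1 (adjusted p = 0.0512 and 0.0649), P2ry2 without C/+ 1 or WT 2 (0.0565 and 0.0593), and Avpr1a had an adjusted p of up to 0.111.

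Lipid synthesis genes used for surfactant gave 4 calls in 26, all lower, with a median log2FC of -0.26 and 0.503% of all tested genes called lower. Scd2, a stearoyl-CoA desaturase, stood at 1813, 1475 and 1711 CPM in WT and at 973, 1205 and 1045 CPM in C/+ (log2FC -0.63, SE 0.12, adjusted p = 0.0200). Pcyt1a, the rate-limiting enzyme of phosphatidylcholine synthesis, stood at 184, 145 and 164 CPM in WT and at 112, 113 and 112 CPM in C/+ (log2FC -0.55, SE 0.10, adjusted p = 0.0199). Srebf1, a regulator of fatty acid synthesis genes, fell with log2FC -0.42. Scd1, the more abundant desaturase, stood at 13453, 14274 and 13874 CPM in WT and at 11370, 15293 and 16453 CPM in C/+ and overlapped (log2FC 0.05, adjusted p = 0.871). Scd2 lost its call without WT 3 or C/+ 1 (adjusted p = 0.07 and 0.0755) and Pcyt1a without these or C/+ 2 (up to 0.0707). Fasn, fatty acid synthase, had a log2FC of -0.44 and was not called (adjusted p = 0.0630). The count was 0 without C/+ 1 or WT 3, 1 without C/+ 2 and 2 without either C/C library, and DESeq2 called 10 lower.

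Among 11 MHC class II genes, Ciita, the master regulator of the class, fell (log2FC -0.52, SE 0.11, adjusted p = 0.0331), while H2-Aa and Cd74 stood at 991 and 4306 CPM in C/+ and 1208 and 4930 CPM in WT and were not called. Among 19 circadian clock genes Cry1 (log2FC -0.73) and Rora (-0.43) fell and Hlf (2.72) rose. Hlf averaged 0.276 CPM in WT, on 8, 8 and 13 counts, so its fold change is uncertain. The core activators Arntl and Clock had log2FC of -0.11 and -0.37 (adjusted p = 0.579 and 0.237). Among 22 interferon response genes Oasl2 (log2FC 0.93) and Gbp3 (2.43) rose. Over all tested genes 3.42% were called higher and 0.503% lower, and with so few calls nothing is concluded about these lists as wholes. Of the calls in these lists, Ciita, Cry1, Rora, Hlf and Oasl2 were lost without C/+ 1, WT 3 and in part other libraries, and Gbp3 without C/+ 1, at adjusted p of up to 0.148. The genes of the response to dissociation gave 0 calls in 20 (1 at an unadjusted p under 0.05, 0 by DESeq2). Fos, the best known of them, ranged from 624 to 2188 CPM in WT and from 785 to 1459 CPM in C/+.

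Small changes followed transcript length, measured as the longest annotated transcript of each gene. The 8604 genes at 10 CPM or more on average were divided by length into 10 bins of like size, and the median log2FC was 0.22 in the shortest bin and -0.21 in the longest. The shortest bin held 32 genes called higher by less than 2-fold and 0 called lower, and the longest held 2 and 29. The median length was 2035 bases for the 86 genes called higher by less than 2-fold, 6404 bases for the 75 called lower and 3560 bases for all genes at that level. For the 424 genes called higher by more than 2-fold it was 3559 bases. These genes had a median WT level of only 1.89 CPM, and the median length of all tested genes was 3205 bases. The difference in log2 level between genes of up to 2350 bases and genes of 5022 bases or more, set against the mean of the libraries, was -0.38, -0.01 and -0.02 in WT 1, 2 and 3 and 0.26, 0.18 and -0.03 in C/+ 1, 2 and 3. WT 1 and C/+ 1 thus stood farthest apart, while C/+ 3 lay with WT 2 and WT 3.

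**Figure D5:**
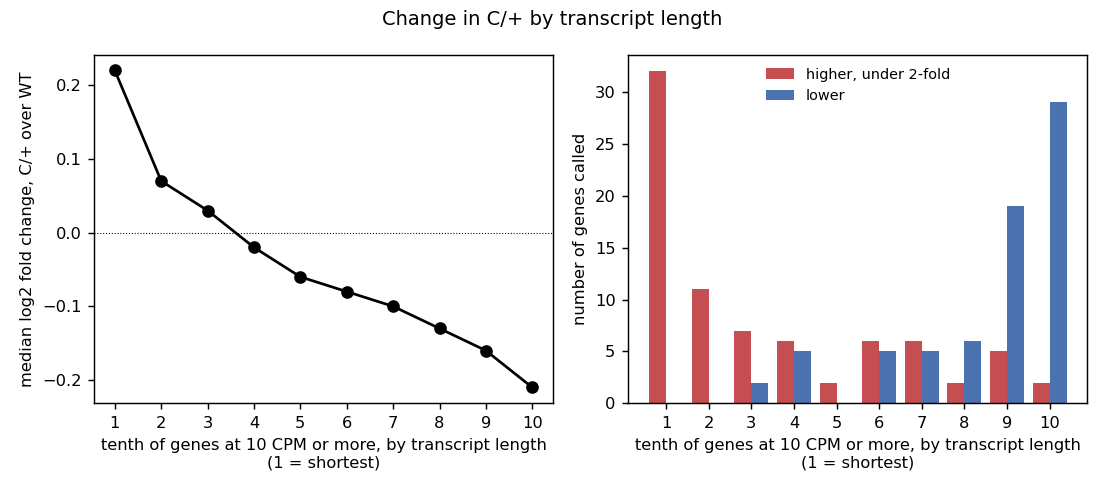
Genes at 10 CPM or more on average, in 10 bins of transcript length from shortest (1) to longest (10). The left panel gives the median log2 fold change, C/+ over WT, which runs from 0.22 to -0.21. The right panel gives the number of genes called higher by less than 2-fold (32 in the shortest bin) and called lower (29 in the longest).

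When the trend of each library with transcript length was removed, 583 genes were called (3.91%), 550 higher (3.69%) and 33 lower (0.221%). Of the genes first called higher by more than 2-fold, 409 of 424 were among them, of those higher by less than 2-fold 56 of 86, and of those called lower 22 of 75. Myh14, Ndnf, Tle3, P2ry2, Scd2, Pcyt1a and Rtkn2 were still called lower, and Srebf1 (adjusted p = 0.0730), Ciita (0.137) and Rora (0.299) were not. The counts of called club cell (11), mesothelial (10) and G2 and mitosis genes (25) were the same, and the shared endothelial markers gave 18. The mitochondrial genes mt-Nd1 and mt-Cytb, called higher with log2FC of 0.87 and 0.70, were no longer called (adjusted p = 0.206 and 0.247). In the main model mt-Cytb also lost its call in each of the 8 fits without 1 library (adjusted p up to 0.14). There mt-Nd1 lost its call without any 1 WT library, C/+ 1 or C/+ 2 (up to 0.114). Mitochondrial transcripts took 3.31%, 2.92% and 2.90% of counts in WT 1, 2 and 3 and 4.26%, 3.93% and 6.40% in C/+ 1, 2 and 3. Whether the length trend reflects the cells or the handling of their RNA was not tested.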

How the data were processed

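RNA of sorted mouse lung cells was sequenced from stranded mRNA libraries, per the labels' protocols. The authors deposited whole-number read counts per gene for 43432 mouse Ensembl identifiers in 8 libraries, not normalized. The submitters' processing notes name STAR 2.4.2a and DESeq2, and the human build GRCh38, although the identifiers are mouse. How reads were counted, with which strand setting and annotation, is not given in the sources used here, so near-identical genes (Lyz1 and Lyz2, C4b and C4a) and antisense neighbours are uncertain. Symbols were matched for 42462 identifiers, and GENCODE M21 (GRCm38) gave positions and transcript lengths.

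All 8 libraries entered a single edgeR 4.0.16 quasi-likelihood model under R 4.3.3, 1 coefficient for each group, after TMM scaling and filterByExpr. C/+ was then tested two-sided against WT with Benjamini-Hochberg adjustment over 14906 genes (called under 0.05). The procedure was also run on counts simulated from the model's own fitted spread. Those counts held no length trend and no sex difference, so that run cannot show how these affect the calls. CPM are TMM-scaled except in the whole-library shares. Length trends were fitted by lowess (span 0.3) on log2 CPM of genes at 10 CPM or more. Alternatives were the Wald test of DESeq2 1.42.0, its size factors within edgeR, other filters, WT and C/+ alone, a replicate block, a test against 1.5-fold, sex as a covariate and leaving out each library. Removal of the length trend was added after the data were seen. Replicates differed by more than sampling noise (chi-square per gene of 11.8 to 71.4 over the pairs of libraries within a group). These values are given per pair of libraries and do not show how large counting error is for scarce genes.

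The groups and the 33 gene lists were chosen with earlier results of these data known. Genes named are Chia1, the 15 largest changes in each direction at 10 CPM or more without overlap, and the 8 most abundant calls in each direction. From each list up to 4 called members of highest level were added, or up to 2 uncalled ones where no member was called. Some genes of this set are given only in counts, and other members named as examples were chosen after their values were seen. A few genes are not reported here.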

Additional observations from a re-analysis of the deposited data

Results flagged for a closer look

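Of 192 genes scanned, which are those named in the text and those of the naming rule, 9 moved in opposite directions in the sexes, with every library of a sex on the same side. The male values rest on WT 2, WT 3 and C/+ 1 and the female values on WT 1, C/+ 2 and C/+ 3, so each rests on 1 library of one group. The differences between the sexes were not tested. The 510 genes called higher and the 75 called lower all had the same sign in both sexes, so only uncalled genes could appear here. The scan did not cover all tested genes, so whether 9 is many or few cannot be said. Values are C/+ minus WT on the log2 scale. Ptprc, the CD45 gene, gave 1.87 in males and -2.49 in females, at under 2 CPM in each library. Pdgfra, a growth factor receptor of fibroblasts, gave 1.43 in males and -0.58 in females, at 0.149 to 0.881 CPM. For Sncg, a synuclein gene listed among the basal cell markers, the values were 0.52 in males and -1.70 in females, at levels of 0.0933 to 1.14 CPM. Csf1r, the receptor of macrophage colony-stimulating factor, gave 0.16 in males and -0.18 in females. Jun, an immediate early transcription factor, gave -0.42 in males and 0.29 in females, at 574 to 1544 CPM. Scd1, a stearoyl-CoA desaturase, gave -0.31 in males and 0.24 in females. The imprinted genes Cdkn1c and Grb10 gave -0.15 and 0.37 in males and 0.40 and -0.11 in females, and Mcm4, a helicase subunit, gave 0.38 in males and -0.09 in females. None of these genes was called between C/+ and WT, and their adjusted p lay between 0.451 (Jun) and 0.986 (Ptprc).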

How the results depend on the processing

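The 585 calls (510 higher, 75 lower; 87.2% higher) became 1233 (907, 326) by the DESeq2 Wald test, 1299 (944, 355) without a low-count filter, 1700 (1047, 653) with sex as a covariate, 356 (336, 20) with the WT and C/+ libraries alone and 131 (131, 0) against a 1.5-fold change. Removing the length trend left 33 lower. Without 1 library the total ranged from 103 (without C/+ 1) to 729 (without C/+ 3), higher calls from 98 to 604 and lower calls from 5 to 125. The cause of these shifts was not tested. With a replicate block 457 genes were called, 435 higher and 22 lower. The labels do not say whether replicate numbers pair the libraries. Deviations of same-numbered libraries correlated at -0.21, -0.05 and -0.06, and those of differently numbered libraries between -0.13 and 0.18. With 3 libraries per group, each set against its group mean, these values cannot decide whether libraries were paired. DESeq2 size factors (601) and a filter of 1 CPM in 3 libraries (582) stayed within 1.5 times. None of the 101 called genes among the 117 named reversed in any alternative, and 17 kept their calls in every fit without 1 library. Of the genes called higher, 139 averaged under 1 CPM in WT and rest on few counts there.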

Other observations

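Several gene families that no list covered were looked at after their values were seen, so their counts are descriptions. Of 7 such families, cytosolic ribosomal proteins gave 3 calls in 91 genes and nuclear subunits of the respiratory chain 5 in 81 (2 with the length trend removed), all higher, where 3.42% of all tested genes were called higher. Basement membrane and elastic fibre genes gave 11 in 32, all higher. Of 21 imprinted genes, expressed from 1 parental copy, 6 were called higher and 1 lower. Meg3, a noncoding RNA of the imprinted Dlk1-Dio3 cluster, stood at 11.3, 6.69 and 6.40 CPM in WT and at 44.8, 34.3 and 67.3 CPM in C/+ (log2FC 2.57, SE 0.29, adjusted p = 0.00906). Its neighbours Rian and Mirg, noncoding RNAs of the same cluster, rose with log2FC of 2.60 and 3.65. Mirg averaged only 0.094 CPM in WT, on 4, 3 and 2 counts, so its fold change is uncertain. C/+ 3 was the highest library for Meg3 and Rian, unlike for the vessel, mesothelial and club cell genes. The imprinted genes Mest, Ndn and Igf2 rose with log2FC of 3.14, 2.64 and 1.19. Mest and Ndn averaged 0.320 and 0.305 CPM in WT, so their fold changes rest on few counts there. Igf2r, the receptor that clears Igf2, fell from 127.6, 112.6 and 107.7 CPM in WT to 85.0, 93.9 and 85.2 CPM in C/+ (log2FC -0.40, adjusted p = 0.0447). Imprinted genes without a call included Peg3, Grb10 and Cdkn1c, with log2FC of 0.39, 0.14 and -0.02.

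Of 16 complement genes 7 were called higher and 0 lower, where 3.42% of all tested genes were called higher. Serping1, the C1 inhibitor, rose with log2FC 2.68, C4b, whose reads may be shared with its copy C4a, with 2.99, and the membrane inhibitor Cd59a with 1.53. C3, the central component, had mean levels of 380 (WT) and 528 CPM (C/+) and was not called (log2FC 0.47, adjusted p = 0.241). The Gimap family of GTPases, known from lymphocytes and also expressed in endothelium, gave 4 calls in 6, all higher. Gimap6 stood at 4.11, 3.56 and 1.04 CPM in WT and at 24.5, 24.0 and 12.7 CPM in C/+ (log2FC 2.85, SE 0.44, adjusted p = 0.0116), a call kept in all 8 fits without 1 library. Of 11 class 3 and class 6 semaphorins, guidance proteins of axons and vessels, 5 rose: Sema6d, Sema3g, Sema6a, Sema3c and Sema3f, with log2FC from 1.59 to 2.4.

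The lung regulator Foxf1 and the noncoding RNA Fendrr, which lie next to each other on chromosome 8 on opposite strands, both rose (log2FC 2.12 and 2.5, adjusted p = 0.0495 and 0.0205). Aqp1, a water channel of capillaries, mesothelium and red cells, had the highest C/+ level among the vessel-type genes outside the lists, at 43.1, 27.9 and 13.8 CPM in WT and 203, 156.5 and 99.2 CPM in C/+ (log2FC 2.44, SE 0.37, adjusted p = 0.0116). Foxm1, a transcription factor that activates mitotic genes, rose with log2FC 1.10 (SE 0.27, adjusted p = 0.0472), from 4.11, 2.75 and 3.14 CPM in WT to 9.04, 4.76 and 7.76 CPM in C/+, again with C/+ 2 as the lowest C/+ library.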
